A study of Homo sapiens with 6 samples.

Results

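DNA repair genes were examined in HCT116, an established human colorectal carcinoma line known as mismatch-repair deficient and microsatellite-unstable. The genes were taken from a list of 56 symbols covering the main repair pathways. Of these, 34 were paired with a probe set through the platform annotation, out of 14884 genes so paired, and each gene was read from its brightest probe set by the mean of the 6 arrays. MRE11 was listed under its older symbol MRE11A. The other 22 listed genes were not analysed here. They comprise all 7 nucleotide excision repair genes, 3 base excision genes, 3 Fanconi anaemia genes, 2 replicative polymerase genes, 2 homologous recombination genes, 2 end-joining genes, 2 RecQ helicase genes and 1 damage-signalling gene.

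Total RNA was hybridised to whole-transcript expression arrays. By the labels, a group of 3 arrays came from stably transduced HCT116 cells overexpressing miR-196b, and a group of 3 from cells stably transduced with an empty vector. The cell line is spelled HCT116 in the submitters' design text and culture protocol, and HTC116 in the sample titles and the cell line label. The sample titles of the overexpressing group write the microRNA as miR1966. Both groups had thus been transduced and were grown in the same medium. The submitters describe the 3 samples per group as biological replicates. The promoter of the vector and whether cells were clones or pools are not given in the sources used here, and p-values reflect only how far these cultures differed. In bulk RNA, fewer cells expressing a gene and less of its RNA per cell cannot be told apart.

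DNA repair is divided by the kind of damage. Mismatch repair corrects bases and small loops left behind by the replicative polymerases: MutS proteins find the error, MutL proteins cut the new strand and EXO1 removes it. Base excision repair starts with glycosylases that each release a type of damaged base, after which APEX1 cuts the backbone and XRCC1 and the PARP enzymes assist the filling of the gap. Double-strand breaks are joined directly by the Ku proteins and XRCC4, or copied from the sister chromatid by homologous recombination, and the kinases ATR, CHEK1 and CHEK2 stop the cell cycle meanwhile. Colorectal tumours without mismatch repair collect length changes in short DNA repeats.

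The microRNA that the labels name is printed because it defines the groups, together with its relative miR-196a, whose mature strand has an identical seed. Sequences are those of RefSeq, GRCh38.p14, read 5′ to 3′, and capitals mark the seed, bases 2 to 8. The first lies at chr7:27169528-27169549 on the minus strand and the second, from MIR196A2, at chr12:53991762-53991783 on the plus strand.
hsa-miR-196b-5p: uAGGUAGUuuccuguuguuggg
hsa-miR-196a-5p: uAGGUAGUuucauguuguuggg
The probe set of MIR196B had a log2 signal of 8.05 ± 0.144 in the arrays labelled miR-196b and 7.97 ± 0.102 in the empty vector arrays (SD, n = 3 each). Its log2 change of 0.08 stayed short of the threshold (limma, adjusted p = 0.819). MIR196A2, named after its values were seen, was at 10.6 ± 0.149 in the arrays labelled miR-196b and 3.06 ± 0.167 in the empty vector arrays (log2, SD, n = 3 each). The groups were 7.55 apart on that scale (limma, adjusted p = 4.53e-07). The signal of the gene named in the label thus showed no difference past the test, and that of its relative did. The array reads precursor transcripts, so neither value gives the level of the mature strand. Which hairpin the vector carries is not given in the sources used here, so whether the values below belong to miR-196b or to miR-196a cannot be told apart. The group is therefore called by its label below, and every direction follows the labels.

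Of the 10 colon epithelium markers 8 were measured, 4 higher and 4 lower, with mean log2 signals of 10.90 in the arrays labelled miR-196b and 11.02 in the empty vector arrays for EPCAM. VIL1 alone of the 8 lay in the dimmest 40% of named probe sets. The log2 changes ran from -0.26 for CDX2 and -0.22 for KRT18 to 0.14 for CLDN3 and 0.28 for CLDN4. The groups did not overlap for KRT18, CDX2 and CLDN4, or 37.5% of the 8, where 17.2% of named probe sets had such groups. KRT18 had 2 probe sets, and only the brighter is given here. Of 18 fibroblast, blood cell and endothelial markers 9 were measured, and 7 of these lay in the dimmest 40% of named probe sets, the exceptions being THY1 and CD68. None of the 17 measured markers passed the test (limma, 0 with an adjusted p below 0.05). The groups did not overlap for 5 of the 17, or 29.4%, the fibroblast marker LUM and the blood cell marker CSF1R among them. An unadjusted p below 0.05 was reached by 3 of 17, or 17.6%, where 9.87% of named probe sets reached it: the epithelial KRT18 and CDX2, both lower, and the blood cell marker CSF1R, higher by 0.31 (log2) at a signal in the dimmest 40%. The part of these markers in the results was not tested.

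None of the 34 repair genes changed past the test. With limma fitted over all 16098 named probe sets and Benjamini-Hochberg adjustment, 0 of 34 repair genes had an adjusted p below 0.05 (0.504 to 0.970), where 0.0559% of all named probe sets did. An unadjusted p below 0.05 was reached by 1 of 34, or 2.94%, where 9.87% of named probe sets reached it. That gene was lower, a direction in which 4.14% of named probe sets reached it. The 34 log2 changes ran from -0.19 for NEIL2 to 0.18 for NEIL3, with 19 of 34 higher, where 52.0% of named probe sets were, and 15 lower. Their median was 0.017, where the median of all 14884 genes was 0.008. No repair gene differed by more than 0.5 on the log2 scale, and 145 of the 14884 genes did. That share is so low that finding none among 34 does not set the repair genes apart.

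The intervals show how large a change could have been missed. The 95% interval of every one of the 34 repair genes lay between -0.54 and 0.42 on the log2 scale, and so inside a 1.5-fold change in either direction, which is 0.58. A 1.25-fold change in either direction, 0.32 on the log2 scale, lay outside the interval of 24 of the 34. For all 14884 genes the shares were 88.4% inside 1.5-fold and 41.5% inside 1.25-fold. The median half-width of the interval was 0.19 for the repair genes and 0.24 for all genes. These intervals are per gene, without adjustment for the number of genes, and array signal can understate a fold change of the transcript.

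**Figure D1:**
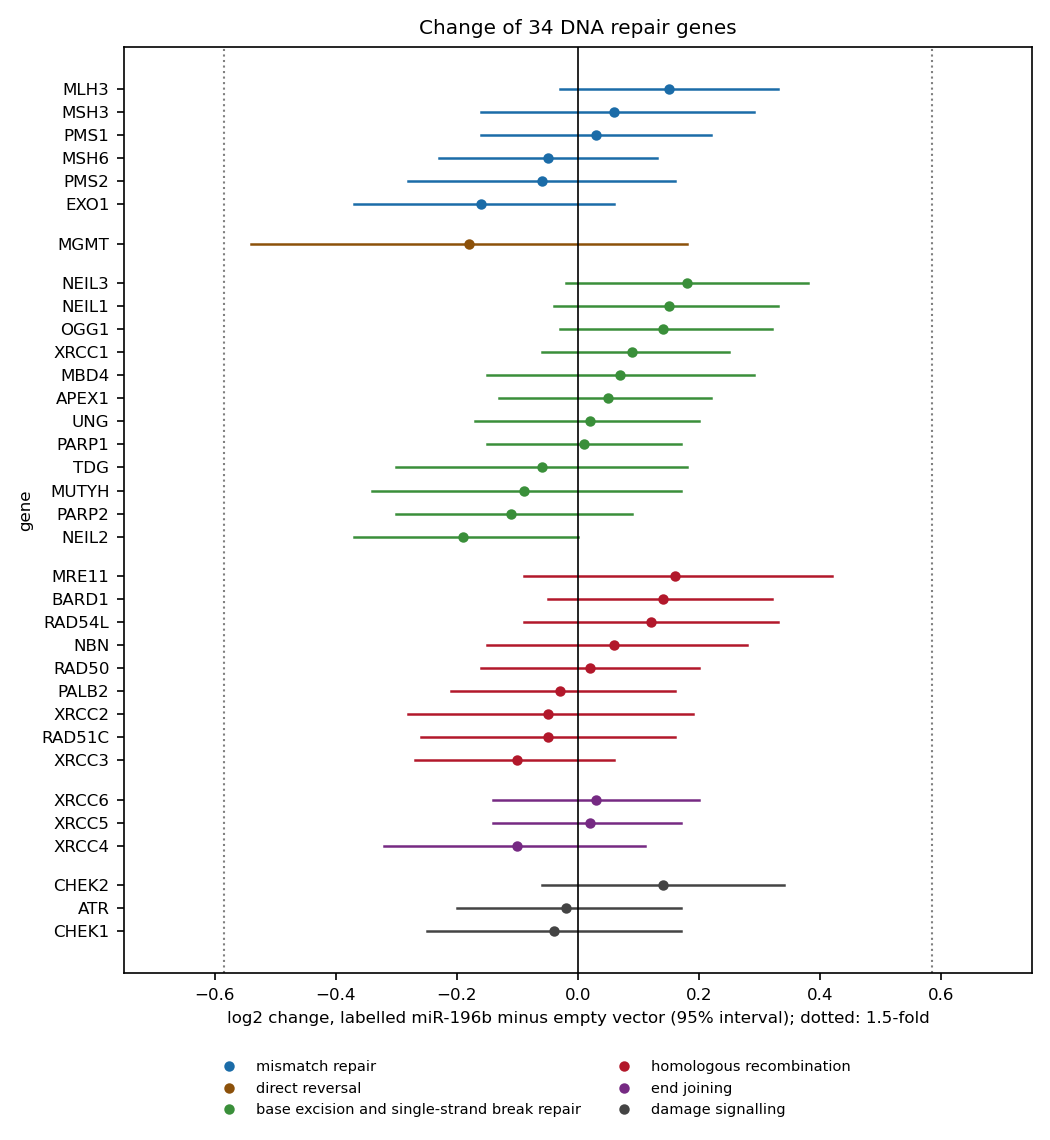
Log2 change of each of 34 repair genes, labelled miR-196b minus empty vector (horizontal axis), with the 95% limma interval as a line and colours for the pathways; dotted lines stand at 1.5-fold. Changes run from -0.19 to 0.18, and no interval reaches a dotted line.

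**Figure D2:**
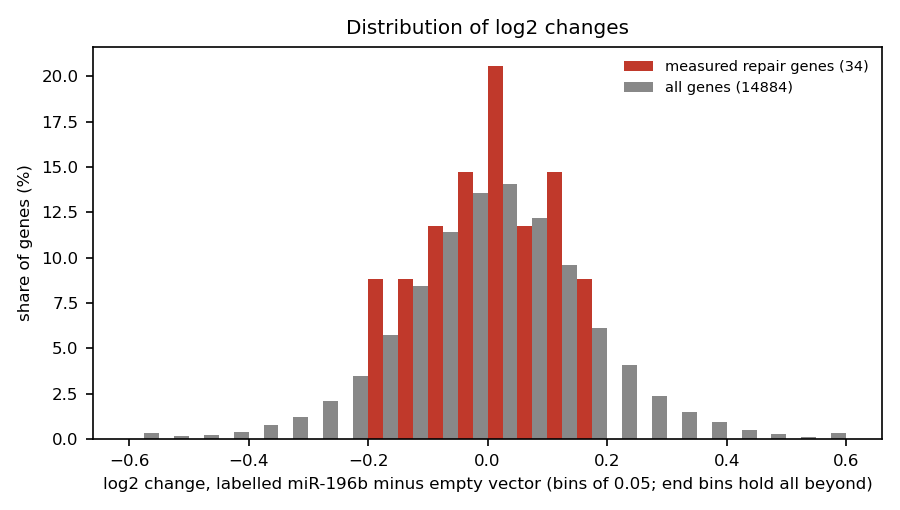
Share of genes (vertical axis, percent) by log2 change, labelled miR-196b minus empty vector, in bins of 0.05, for the 34 repair genes and for all 14884 genes, with the end bins holding everything beyond. The repair genes lie between -0.19 and 0.18, and the tails on both sides hold other genes only.

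Replicates lay close together for these genes. The median within-group SD was 0.082 over the 34 repair genes and 0.128 over all named probe sets. Among the 34, the SD of a gene ran from 0.020 for XRCC5 to 0.227 for MGMT. All 34 repair genes stayed when the dimmest 40% of named probe sets were left out, as did 9052 of the 14884 genes. Among those 9052 genes the median within-group SD was 0.098, and 10.5% had an unadjusted p below 0.05 (limma).

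The 3 arrays labelled miR-196b lay wholly on one side of the 3 empty vector arrays for 7 of 34 repair genes, or 20.6%, where 17.2% of named probe sets had groups that did not overlap. On the higher side there were 5 (MLH3, OGG1, XRCC1, BARD1 and CHEK2), where the share over named probe sets was 10.0%. On the lower side there were 2 (NEIL2 and XRCC3), where it was 7.18%. These shares lie near those of all named probe sets. With fewer arrays separation is easier. With an array labelled miR-196b left out, the count was 10 of 34 without replicate 1, 11 without replicate 2 and 11 without replicate 3, where 28.4%, 28.3% and 27.2% of named probe sets had groups that did not overlap. With an empty vector array left out, it was 12 without replicate 1, 7 without replicate 2 and 10 without replicate 3, where 27.1%, 27.0% and 26.6% of named probe sets had. The separated genes came from several pathways, and none of their adjusted p-values was below 0.504 (limma). With 3 arrays a group, the smallest p of a two-sided exact permutation test is 0.1.

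All 6 listed mismatch repair genes were measured, and none passed the test: 3 were higher and 3 lower, and the median change was -0.010 (log2). MSH3 and MSH6 are the MutS partners that recognise larger loops and single mismatches. MSH6 had log2 signals of 8.12, 8.07 and 8.05 in the arrays labelled miR-196b and 8.03, 8.13 and 8.21 in the empty vector arrays. MSH3 had 7.23, 7.51 and 7.41 in the arrays labelled miR-196b and 7.23, 7.38 and 7.35 in the empty vector arrays. The groups overlapped for both genes. The log2 change was -0.05 for MSH6 (95% interval -0.23 to 0.13, limma adjusted p = 0.865) and 0.06 for MSH3 (-0.16 to 0.29, adjusted p = 0.849).

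PMS1, PMS2 and MLH3 are MutL proteins. PMS2, the partner in the main nicking complex, had log2 signals of 8.56, 8.60 and 8.38 in the arrays labelled miR-196b and 8.55, 8.69 and 8.49 in the empty vector arrays. PMS1, whose role in human repair is minor, had 7.27, 7.27 and 7.45 in the arrays labelled miR-196b and 7.26, 7.33 and 7.32 in the empty vector arrays. Both genes had overlapping groups, with log2 changes of -0.06 for PMS2 (limma adjusted p = 0.848) and 0.03 for PMS1 (limma adjusted p = 0.931). PMS2 has near-identical pseudogene copies whose signal its probes could share, so its value is uncertain. MLH3, which also acts in meiotic crossing over, had 6.66, 6.63 and 6.71 in the arrays labelled miR-196b and 6.41, 6.59 and 6.54 in the empty vector arrays. Every array labelled miR-196b was above every empty vector array, by 0.15 on average with an SE of 0.08 (limma adjusted p = 0.567).

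EXO1, the exonuclease that removes the faulty strand and also trims broken ends, had log2 signals of 8.90, 9.16 and 8.96 in the arrays labelled miR-196b and 9.10, 9.18 and 9.22 in the empty vector arrays. The miR-196b-labelled replicate 2 lay within the empty vector range and the other 2 arrays labelled miR-196b below it. The log2 change was -0.16 (95% interval -0.37 to 0.06, limma adjusted p = 0.603). The measured signal is that of RNA and does not tell intact from frameshifted transcripts, so these values do not test the repair capacity of the cells.

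**Figure D3:**
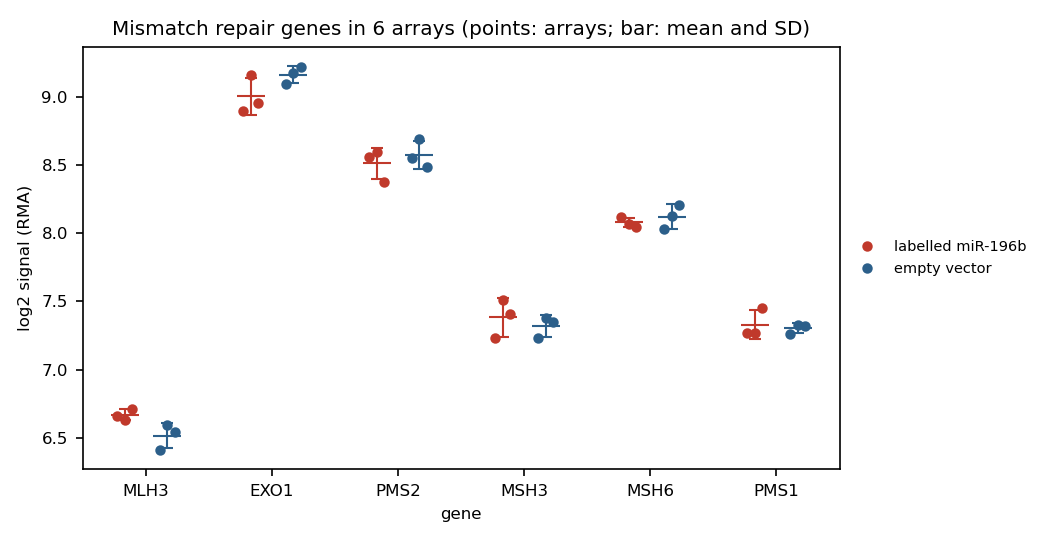
Log2 signal (vertical axis) of the 6 mismatch repair genes in each array, labelled miR-196b left of empty vector for each gene, with bars for the mean and SD of 3 arrays. The groups overlap for 5 genes, and MLH3 has all 3 arrays labelled miR-196b above all 3 empty vector arrays.

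Promoters were compared because many repair genes are known to be switched on with DNA replication by E2F factors. A RefSeq window of 300 bases, from 250 before to 50 after the gene start, was found for 31 of the 34 repair genes. The letters TTTCCCGC, TTTCGCGC, TTTGCCGC or TTTGGCGC, on either strand, occurred in 6 of 31 windows (19.4%) and in 3.3% of all 27305 windows. CCAAT on either strand occurred in 19 of 31 (61.3%) and in 35.7% of all windows, and TATAAA on either strand in 0 of 31 and in 12.0% of all windows. The median GC content was 64.3% in the 31 windows, from 51.0% for MLH3 to 78.7% for MGMT, and 58.3% in all windows. For protein-coding genes alone, 15843 windows, the shares were 4.4% for the E2F-type letters, 36.4% for CCAAT and 9.6% for TATAAA. The median GC content of these protein-coding windows was 62.7%, near the 64.3% of the 31 windows. A match is a description of letters and not a bound site.

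The stretches around the E2F-type letters are shown for all 6 genes that hold them, with 20 bases on each side where the window allows. They are from GRCh38.p14, printed along the strand of the gene, and capitals mark the motif on either strand. In MSH3 a match on each strand overlaps the other. The positions are chr1:241848188-241848235 (plus strand) for EXO1, chr5:80654525-80654576 (plus) for MSH3, chr2:47783128-47783175 (plus) for MSH6, chr7:6009122-6009169 (minus) for PMS2, chr7:152676093-152676140 (minus) for XRCC2 and chr22:41621317-41621344 (plus) for XRCC6.
EXO1: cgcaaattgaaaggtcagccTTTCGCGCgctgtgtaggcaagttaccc
MSH3: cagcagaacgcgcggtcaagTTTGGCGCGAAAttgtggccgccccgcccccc
MSH6: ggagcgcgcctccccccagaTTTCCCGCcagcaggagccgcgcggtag
PMS2: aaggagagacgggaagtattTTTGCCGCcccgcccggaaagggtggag
XRCC2: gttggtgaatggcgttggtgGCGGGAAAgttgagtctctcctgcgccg
XRCC6: tccaagttggtcgcttccctGCGCCAAA
These 6 genes had log2 changes of -0.16 (EXO1), 0.06 (MSH3), -0.05 (MSH6), -0.06 (PMS2), -0.05 (XRCC2) and 0.03 (XRCC6), none past the test.

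Of the 12 measured base excision and single-strand break repair genes, 8 were higher and 4 lower, the median change was 0.033 (log2), and 0 passed the test. The NEIL enzymes, glycosylases that release oxidised bases, gave both ends of the range. NEIL2 had log2 signals of 6.49, 6.65 and 6.58 in the arrays labelled miR-196b and 6.77, 6.69 and 6.81 in the empty vector arrays. All arrays labelled miR-196b were below all empty vector arrays, by a gap of 0.04 between the nearest arrays. The log2 change was -0.19 (SE 0.08, limma adjusted p = 0.504), and NEIL2 was the 1 repair gene with an unadjusted p below 0.05. Over the alternatives the count of such repair genes ran from 0 to 3. It was 0 without the miR-196b-labelled replicate 1 or any of the 3 empty vector replicates. In those fits 8.1% to 9.4% of named probe sets had an unadjusted p below 0.05. The count was 2 (EXO1 and NEIL2) without the miR-196b-labelled replicate 2, where 9.7% of named probe sets had. The genes differed between settings: NEIL2 was below 0.05 in 5 of the 15 alternatives. With a trended, robust prior its unadjusted p was 0.0524, and the 3 genes below 0.05 were NEIL3, EXO1 and NEIL1. That fit had 11.7% of named probe sets below 0.05. Without the miR-196b-labelled replicate 3 the 1 gene was NEIL3, where 8.5% of named probe sets were below 0.05 (limma throughout).

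NEIL3, a glycosylase known for acting in dividing cells and on crosslinks, went the other way. It had log2 signals of 9.33, 9.36 and 9.19 in the arrays labelled miR-196b and 9.04, 9.10 and 9.20 in the empty vector arrays. The groups overlapped, since the miR-196b-labelled replicate 3 lay just below the empty vector replicate 3. The log2 change was 0.18 (SE 0.08, limma adjusted p = 0.527). NEIL1 had a log2 change of 0.15 (95% interval -0.04 to 0.33, limma adjusted p = 0.584).

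OGG1, the glycosylase for 8-oxoguanine, had log2 signals of 6.16, 6.18 and 6.09 in the arrays labelled miR-196b and 5.99, 6.07 and 5.93 in the empty vector arrays. The groups did not overlap, and the log2 change was 0.14 (95% interval -0.03 to 0.32, limma adjusted p = 0.567). MUTYH, which removes the adenine wrongly placed opposite 8-oxoguanine, had a log2 change of -0.09 (limma adjusted p = 0.817). XRCC1, the scaffold of single-strand break repair, had log2 signals of 9.94, 9.90 and 9.87 in the arrays labelled miR-196b and 9.82, 9.79 and 9.82 in the empty vector arrays. These groups did not overlap either, at a log2 change of 0.09 (95% interval -0.06 to 0.25, limma adjusted p = 0.669).

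The base excision genes without array values above had log2 changes from -0.11 for PARP2 to 0.15 for NEIL1. The glycosylases for uracil and for thymine opposite guanine were at 0.02 (UNG), -0.06 (TDG) and 0.07 (MBD4). The endonuclease APEX1 was at 0.05 and PARP1, the enzyme that marks breaks with poly(ADP-ribose), at 0.01 with a 95% interval of -0.15 to 0.17. Adjusted p-values of these genes, XRCC1 and MUTYH included, were 0.584 to 0.970 (limma).

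MGMT, the methyltransferase that takes alkyl groups off guanine directly, varied most between replicates among the 34. It had log2 signals of 5.13, 5.54 and 5.16 in the arrays labelled miR-196b and 5.27, 5.71 and 5.39 in the empty vector arrays. The groups overlapped, and replicate 2 was the highest array in each group. The log2 change was -0.18, with the interval that reached lowest among the 34 (-0.54 to 0.18, limma adjusted p = 0.722). With an array left out in turn it ran from -0.31 to -0.05.

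Of the 9 measured homologous recombination genes, 5 were higher and 4 lower, the median change was 0.023 (log2), and 0 passed the test. RAD50, MRE11 and NBN form the complex that holds broken ends. MRE11, its nuclease, had log2 signals of 7.20, 7.24 and 7.52 in the arrays labelled miR-196b and 7.05, 7.17 and 7.25 in the empty vector arrays. The groups overlapped, and the miR-196b-labelled replicate 3 stood above the other 5 arrays. The log2 change was 0.16 (95% interval -0.09 to 0.42, limma adjusted p = 0.646), or 0.06 at the lowest with an array left out. RAD50 had a log2 change of 0.02 and NBN of 0.06 (limma adjusted p = 0.941 and 0.845).

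BARD1 is a RING-domain partner in a ubiquitin ligase of recombination. It had log2 signals of 7.25, 7.31 and 7.23 in the arrays labelled miR-196b and 7.04, 7.21 and 7.14 in the empty vector arrays. The groups did not overlap, with a gap of 0.02 between the nearest arrays, and the log2 change was 0.14 (95% interval -0.05 to 0.32, limma adjusted p = 0.599). XRCC3, a paralog of the strand-exchange recombinase, had 6.45, 6.50 and 6.40 in the arrays labelled miR-196b and 6.60, 6.57 and 6.51 in the empty vector arrays. All arrays labelled miR-196b were lower, by a gap that rounds to 0.00 between the nearest arrays. The log2 change was -0.10 (95% interval -0.27 to 0.06, limma adjusted p = 0.651). The other 6 genes of this group, RAD50 and NBN included, had log2 changes of -0.05 to 0.12. RAD54L, a motor protein of strand exchange, was at 0.12, the recombinase paralogs RAD51C and XRCC2 at -0.05 each, and PALB2, which bridges recombination proteins, at -0.03.

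End joining had 3 measured genes. XRCC5 and XRCC6 encode the Ku subunits that ring broken ends. XRCC5 had log2 signals of 11.89, 11.92 and 11.87 in the arrays labelled miR-196b and 11.87, 11.89 and 11.88 in the empty vector arrays. XRCC6 had 9.21, 9.13 and 9.22 in the arrays labelled miR-196b and 9.21, 9.10 and 9.16 in the empty vector arrays. Both had overlapping groups and narrow intervals, with log2 changes of 0.02 for XRCC5 (-0.14 to 0.17, limma adjusted p = 0.956) and 0.03 for XRCC6 (-0.14 to 0.20, limma adjusted p = 0.911). XRCC4, the ligase cofactor, had 8.65, 8.85 and 8.86 in the arrays labelled miR-196b and 8.85, 8.99 and 8.84 in the empty vector arrays. The miR-196b-labelled replicate 1 was the lowest array, the groups overlapped, and the log2 change was -0.10 (95% interval -0.32 to 0.11, limma adjusted p = 0.728).

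Of the checkpoint kinases, ATR, which senses single-stranded DNA, had log2 signals of 7.70, 7.87 and 7.70 in the arrays labelled miR-196b and 7.73, 7.78 and 7.81 in the empty vector arrays. CHEK1, the kinase ATR activates, had 8.39, 8.55 and 8.34 in the arrays labelled miR-196b and 8.38, 8.55 and 8.48 in the empty vector arrays. Both genes had overlapping groups, with log2 changes of -0.02 for ATR (limma adjusted p = 0.962) and -0.04 for CHEK1 (limma adjusted p = 0.897).

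CHEK2, the kinase that answers to double-strand breaks, was the 1 repair gene with more than 1 probe set, and their changes had opposite signs. The brighter one had 6.44, 6.58 and 6.43 in the arrays labelled miR-196b and 6.38, 6.23 and 6.42 in the empty vector arrays. Its groups did not overlap, by a gap of 0.01, and its log2 change was 0.14 (SE 0.09, limma adjusted p = 0.626). The dimmer one averaged 3.34 in the arrays labelled miR-196b and 3.50 in the empty vector arrays, a log2 change of -0.16 (SE 0.07, limma unadjusted p = 0.0425, adjusted p = 0.490). That level is below 4.86, the bound of the dimmest 40% of named probe sets. The mean of both probe sets gave -0.01. CHEK2 also has pseudogene copies that its probes could share, so its value is uncertain.

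**Figure D4:**
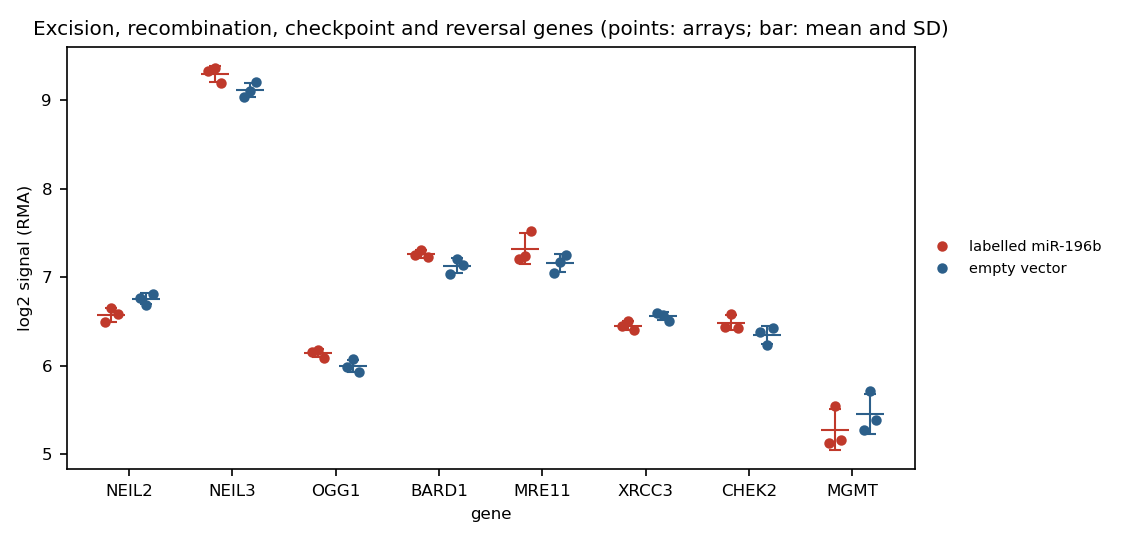
Log2 signal (vertical axis) of 8 genes of base excision, recombination, checkpoint and direct reversal in each array, labelled miR-196b left of empty vector for each gene, with bars for the mean and SD of 3 arrays. NEIL2 and XRCC3 have all arrays labelled miR-196b below, OGG1, BARD1 and CHEK2 all above, and MGMT has the widest spread.

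A further list of 114 repair genes, not among the 56, had 53 measured genes and 0 past the test (limma, adjusted p = 0.347 to 0.990). Of these, 34 were higher and 19 lower, and the median change was 0.036 (log2). An unadjusted p below 0.05 was reached by 6, all higher, or 11.3%, where 5.73% of named probe sets reached it on the higher side and 9.87% in either direction. The count fell to 2 without the miR-196b-labelled replicate 3, to 2 without the empty vector replicate 3 and to 3 with all probe sets of the array in the fit. In those fits 8.5%, 8.3% and 7.4% of probe sets had an unadjusted p below 0.05. The groups did not overlap for 9 of the 53, or 17.0%, a share near the 17.2% of named probe sets.

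The 6 genes were TOP3A, RAD51B, POLI, HLTF, WDR48 and BRIP1. TOP3A, a topoisomerase that resolves joined DNA molecules, had log2 signals of 8.12, 8.17 and 8.09 in the arrays labelled miR-196b and 7.86, 7.85 and 7.82 in the empty vector arrays. The gap between the groups was wider than the range within either, and the log2 change was 0.28 (95% interval 0.12 to 0.44), not past the test (limma adjusted p = 0.347). RAD51B, another recombinase paralog, had 5.29, 5.32 and 5.39 in the arrays labelled miR-196b and 5.05, 4.90 and 5.09 in the empty vector arrays. Its groups were apart too, with a log2 change of 0.32 (95% interval 0.13 to 0.51, limma adjusted p = 0.359).

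The other 4 had log2 changes of 0.21 for POLI, a translesion polymerase, 0.19 for HLTF, which remodels stalled forks, 0.26 for WDR48, a cofactor of the deubiquitinase USP1, and 0.19 for BRIP1, a helicase (limma adjusted p = 0.453 to 0.490). Next in order of p were RAD1, a clamp subunit of checkpoint signalling, at -0.24 and RAD18, the ubiquitin ligase that starts translesion synthesis, at 0.15 (limma adjusted p = 0.506 and 0.545). Of the 8 measured translesion genes, 7 were higher and 1 lower, with a median of 0.095 and 0 past the test.

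Many repair genes are transcribed as cells enter S phase, so 24 proliferation genes were set beside them. All 24 were measured, 16 were higher and 8 lower, their median log2 change was 0.021, and 0 passed the test (limma). An unadjusted p below 0.05 was reached by 1 of 24, or 4.17%, where 9.87% of named probe sets reached it. That gene was CCNE1, a cyclin of S phase entry, with a log2 change of -0.21 and groups 0.17 apart (limma adjusted p = 0.417). Measured from each gene's mean over the 6 arrays, the median deviation of the 34 repair genes was 0.015, 0.040 and -0.016 in the arrays labelled miR-196b and -0.058, 0.013 and 0.011 in the empty vector arrays. That of the proliferation genes was 0.010, 0.047 and -0.040 in the arrays labelled miR-196b and -0.042, -0.002 and 0.024 in the empty vector arrays. For both lists the miR-196b-labelled replicate 2 was highest, and the empty vector replicate 1 was the lowest array of both. The same arrays were highest and lowest over all named probe sets (0.010 and -0.014), so this order is not particular to these lists. The other repair genes were highest in the miR-196b-labelled replicate 3 (0.046) and lowest in the empty vector replicate 1 (-0.049). Without the empty vector replicate 1 the median change of the repair genes was 0.005 (log2). The part of proliferation in the array differences was not tested.

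**Figure D5:**
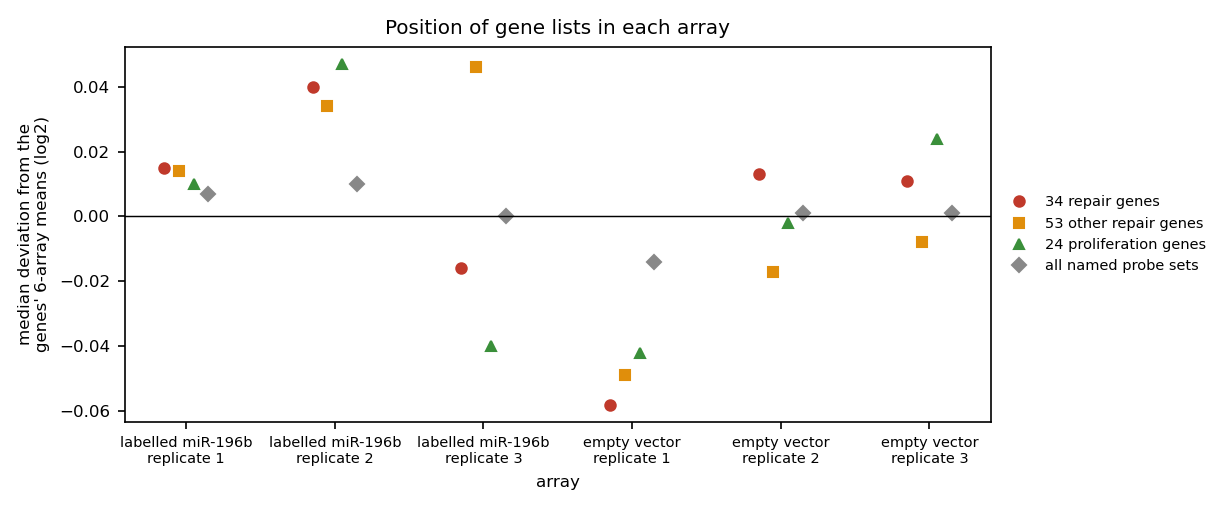
Median deviation of 4 gene sets from each gene's 6-array mean (vertical axis, log2) in each array (horizontal axis), with a symbol per set. The empty vector replicate 1 is lowest for the 34 repair genes (-0.058) and the miR-196b-labelled replicate 2 is highest (0.040), and all named probe sets stay between -0.014 and 0.010.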

How the data were processed

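The deposited values are log2 signals, 1 per probe set and array, made by the authors with RMA and Partek 6.6, per the submitters' processing notes, which give no settings. RMA includes quantile normalization between arrays, which removes any shift of overall level. Array medians were 4.34 to 4.37. The genome build is not given in the sources used here. Of 53617 probe sets, 16098 had 1 gene symbol, updated through gene identifiers, 0 had several, and the others were unnamed here. In R 4.3.3, limma 3.58.1 (lmFit, eBayes, no trend, not robust, no filter) was fitted to these 16098, with 4 residual and 3.23 prior degrees of freedom, and tested on simulated data. Changes are arrays labelled miR-196b minus empty vector, adjusted by Benjamini-Hochberg at 0.05. Precision is limited by having 3 arrays a group.

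The repair genes, the lists and the alternatives were chosen with earlier results of these data known. Values in every array are given for all mismatch repair genes, for the 3 members with the smallest unadjusted p in each other class, and for any past the threshold; the 8 smallest p are named among other repair genes. XRCC1 was given in full after its values were seen. Motifs were chosen after the data were seen. Alternatives were a filter on dim probe sets, a trended robust prior, median centring, repeated quantile normalization, array weights, a replicate block, each array left out, all probe sets, no moderation and, per gene, its probe sets averaged. Scan dates and slides were not used here, and batches were not tested.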

Additional observations from a re-analysis of the deposited data

How the results depend on the processing

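Under all 15 alternatives, 0 of 34 repair genes and 0 of 53 other repair genes passed the adjusted threshold. The median log2 change of the 34 ran from 0.002 to 0.032. Their median deviation in single arrays had an SD of 0.035 between replicates. That SD is of single arrays and not of a difference between group means, so the 2 are not directly comparable. The count of repair genes with an unadjusted p below 0.05 was 1, where 9.87% of named probe sets reached it. It was 2 without the dimmest 40% of probe sets, 3 with a trended, robust prior and 3 without variance moderation. The shares of fitted probe sets below 0.05 were then 14.4%, 11.7% and 9.7%. The count was 0 with median centring, with array weights, with the replicate block and with all probe sets of the array. For these the shares were 9.7%, 10.0%, 9.4% and 7.4%. The count ran from 0 to 2 with an array left out, where the shares were 8.1% to 9.7%. The count of repair genes with separated groups was 7, and 7 to 12 with an array left out, where 26.6% to 28.4% of named probe sets were separated, against 17.2% with all arrays. NEIL2, the 1 gene of that count, was below 0.05 in 5 of the 15 alternatives (p 0.0296 to 0.144, limma), and other genes entered in its place or beside it. Other repair genes with an unadjusted p below 0.05 numbered 6. There were 8 without the dimmest 40%, where 52 were fitted, and 8 with the trended, robust prior. There were 7 with quantile normalization and with array weights, 4 with the replicate block and 3 with all probe sets. With an array left out there were 2 to 6. The shares of fitted probe sets in these settings were those given above, and 10.2% with quantile normalization. Signs turned for CHEK2 with the mean of its probe sets (-0.01) and, with an array left out, for ATR (-0.07 to 0.01), MSH3 (0.00 to 0.14), CHEK1 (-0.10 to 0.00), PMS1 (-0.03 to 0.06) and PMS2 (-0.11 to 0.00), all near 0; the cause was not tested. Arrays with the same replicate number had deviations that correlated at 0.01 to 0.04 over all named probe sets. These correlations cannot tell whether the cultures were paired, and no source used here states a pairing for the block.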
